A study of Mus musculus with 24 samples.

Results

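The interaction of medium and glucose was examined in C2C12 cells, a mouse myoblast line whose cells can fuse into myotubes. It is the log2 change in RNA level from 25 to 5 mM glucose in DM minus the same change in GM, so a value below 0 means that a gene fell more, or rose less, at 5 mM in DM than it did in GM. It needs every group of the study, so all 24 of the 24 arrays entered it: 12 cultures, each hybridised to 2 array designs, MA and MB, which were analysed separately. The groups were GM with 25 mM glucose, GM with 5 mM glucose, DM with 25 mM glucose and DM with 5 mM glucose, with 3 cultures each. The labels give only the abbreviations GM and DM; for this line they commonly stand for growth medium and differentiation medium. Total RNA was measured as one intensity per probe set, a group of short oligonucleotides for the same transcript. The study asks whether calorie restriction alters myoblast differentiation, and the interaction bears on whether the change at low glucose depends on the medium. Nothing in the labels says how long cells were kept in each medium, what else the media contained, or whether the cultures of a group were grown separately, so each p-value rests on the spread among 3 samples of a group, which may be technical only.

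Myoblasts of this line divide while serum is plentiful and, when serum is withdrawn, leave the cell cycle, switch on muscle genes under MyoD and myogenin and fuse. Glucose feeds glycolysis, and it also supplies the sugar chains that are attached to proteins in the endoplasmic reticulum (ER). When folding there is disturbed, the unfolded protein response raises ER chaperones, among them Hspa5, which was named a glucose-regulated protein because glucose deprivation raises it in many cell types. A related stress pathway through the transcription factor ATF4 raises amino acid transporters, tRNA ligases and the enzymes of serine synthesis.

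The markers matched the usual meaning of the media. On MA Myog, the early factor of differentiation, lay between 4219 and 7391 in DM with 25 mM glucose and between 3964 and 7622 in DM with 5 mM glucose, against 8.41 to 26.1 in GM, while Myod1 lay between 976 and 1565 in all 12 cultures. Before any comparison, 4 cultures stood apart in a way the labels do not explain. Both GM_5mM-1 and GM_5mM-2, together with DM_5mM-2 and DM_25mM-3, had a mean intensity of 11.5 to 19.8 over the 3 control probe sets for 18S ribosomal RNA on MA, against 159 to 908 in the other 8 cultures, and their brightest probe set read 6719 to 9752 against 17234 to 22957. These are called the low-18S cultures. They made up 2 of 3 cultures of GM at 5 mM, none of 3 of GM at 25 mM and 1 of 3 of each DM group, so in GM, unlike DM, the 18S class is unevenly spread over the glucose groups. Results are therefore also given with the 18S class as a block in the fit, and from the 8 other cultures alone, where GM at 5 mM has a single culture that is assumed to vary like the rest.

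On MA 13575 probe sets were tested and 72, or 0.53 percent, had an interaction at an adjusted p under 0.05 (limma, Benjamini-Hochberg adjustment, as for every adjusted p here), 22 above 0 (0.162 percent) and 50 below 0 (0.368 percent). They named 64 genes, 5 of them through 2 probe sets each, and 3 probe sets named no single gene. At an unadjusted p under 0.05 the number was 1645, or 12.1 percent. On MB 5 of 13506 probe sets (0.037 percent) were called, 1 above 0 (0.0074 percent) and 4 below (0.0296 percent), and 848 (6.28 percent) had an unadjusted p under 0.05. Of the 72, 60 had an interaction of at least 2-fold, 17 above 0 and 43 below. The last called on MA was a probe set of Rpn1 at an adjusted p of 0.0498 and the next one, not called, was Stk17b at 0.0506. In bulk RNA a lower signal may come from fewer cells of a type or from less RNA per cell, and these cannot be told apart.

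**Figure D1:**
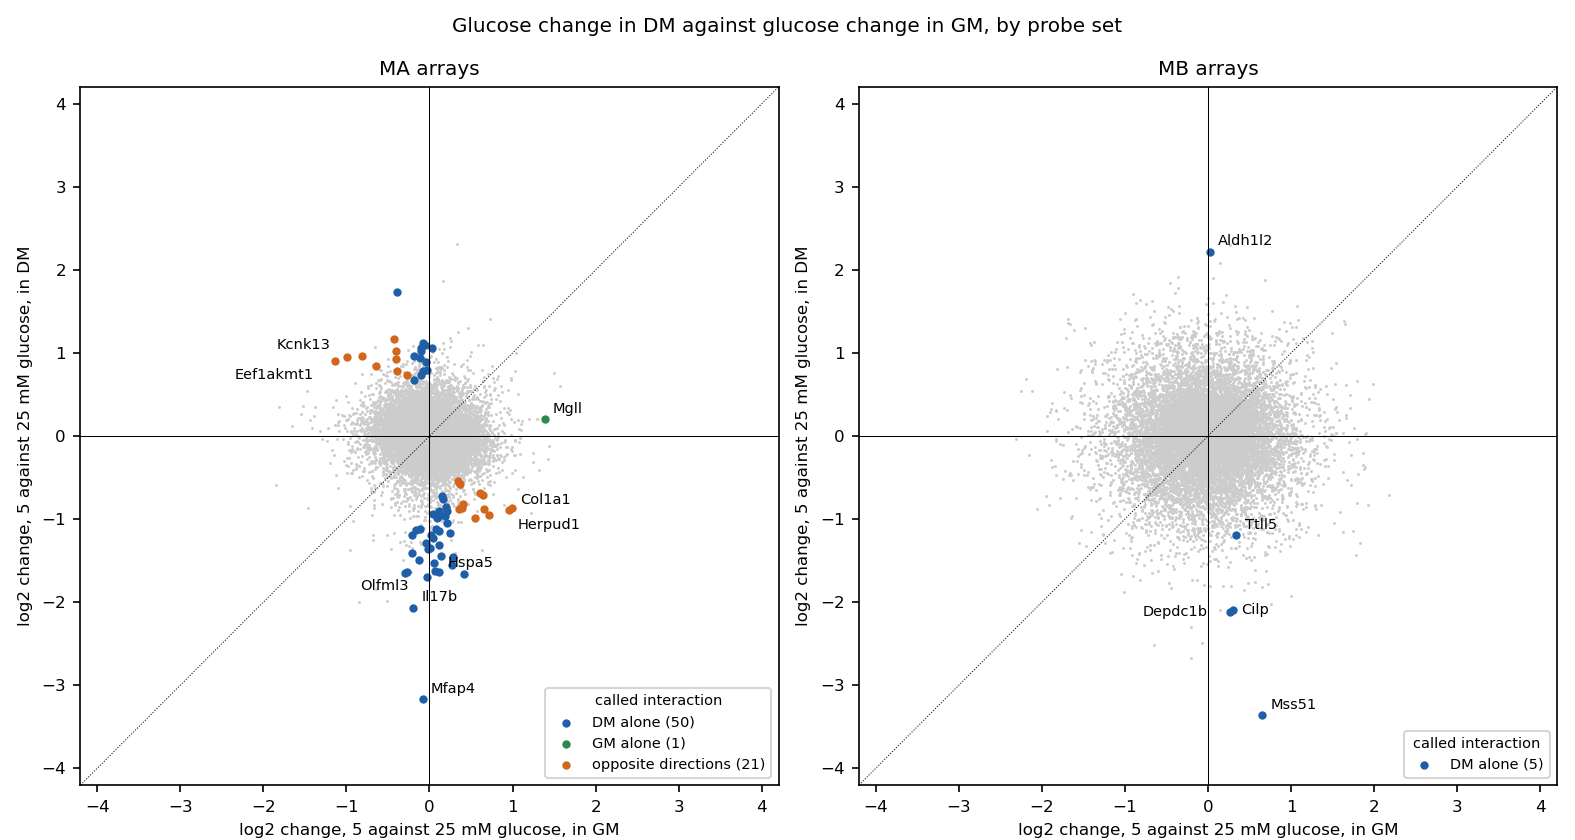
Each point is a probe set, placed by its log2 change from 25 to 5 mM glucose in GM (horizontal) and in DM (vertical), on MA (left) and MB (right); grey points had no called interaction, coloured points are the called ones by class, and the dotted diagonal marks equal changes in both media. The 50 called probe sets of the class DM alone lie near the vertical axis, the 21 of opposite directions to the upper left and the lower right, and Mgll alone far out on the horizontal axis.

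The called interactions were changes in DM with little or no change in GM, or changes of opposite direction. By the unadjusted p under 0.05 in each medium, 50 of the 72 changed in DM alone (13 with an interaction above 0 and 37 below), 21 in opposite directions (9 and 12), 1 in GM alone and none in both media in the same direction. Over all tested probe sets 10.4 percent had such a p in DM and 10.7 percent in GM. All 5 on MB changed in DM alone, where 5.69 percent of the tested probe sets had such a p in DM and 7.01 percent in GM, and 2 of the 5 had GM groups that did not overlap (13.5 percent of those tested), against all 5 in DM (9.74 percent). Choosing on a difference favours opposite signs: the change in GM had the sign opposite to that in DM for 58 of the 72, against 7369 of the 13575 tested. The change was larger in DM than in GM for 67 of the 72. A change that misses the threshold in GM is not shown to be absent, and for 35 of the 50 in DM alone the 95 percent interval of the GM change lay within 0.5 log2 units of 0 on either side. With an adjusted p under 0.05 in each medium the classes became 65 in DM alone, 1 in GM alone, 6 in neither and none in opposite directions, since Mgll was the only probe set called in GM (0.00737 percent of those tested, with 1458 at an unadjusted p under 0.05), against 225 (1.66 percent) in DM, 85 higher (0.626 percent) and 140 lower (1.03 percent). On MB 9 changed in DM (0.0666 percent), 1 higher (0.0074 percent) and 8 lower (0.0592 percent), and none in GM, where 947 had an unadjusted p under 0.05. Of the 225 on MA, 65 also had a called interaction, so for the other 160 the test did not show that the change in DM differed from that in GM.

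The ER chaperone Hspa5 and its partner in stress, Manf, fell at 5 mM in DM. Of 28 tested genes of the unfolded protein response, 3 had a called interaction, all below 0: Hspa5, Manf and Herpud1. Over all 8117 genes on MA, each taken by its brightest probe set, 55 (0.678 percent) had a called interaction, 40 (0.493 percent) below 0 and 15 (0.185 percent) above, and 167 (2.06 percent) changed in DM, 55 up (0.678 percent) and 112 down (1.38 percent). Hspa5, on chromosome 2 at chr2:34772090-34776529, encodes the main chaperone of the ER lumen and had intensities of 3348, 3185 and 2888 in DM at 25 mM and of 875, 1086 and 1063 in DM at 5 mM. In GM the cultures read 2562, 1979 and 1723 at 25 mM and 2161, 2300.1 and 2005 at 5 mM. DM thus held both the highest and the lowest levels, its glucose groups did not overlap, and those of GM did. Hspa5 changed by -1.62 in DM (SE 0.16, adjusted p = 0.000118) and by 0.06 in GM (95 percent interval -0.28 to 0.40), an interaction of -1.69 (SE 0.22, adjusted p = 0.00671). A second MA probe set of the gene was called too, at -2.07 (adjusted p = 0.014). An MB probe set was not called and read 0.05 (SE 0.45, adjusted p = 0.994), so the probe sets of Hspa5 disagree.

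Manf and Herpud1 had the same sign in DM. Manf, a small secreted ER protein that protects stressed cells, read 1222, 1383 and 1026 in DM at 25 mM and 448, 440.2 and 482 at 5 mM, with the 6 GM cultures between 625 and 780.4. Its interaction was -1.34 (SE 0.19, adjusted p = 0.00709) and its change in GM -0.02 (interval -0.30 to 0.27). Herpud1, part of the machinery that removes misfolded proteins from the ER, read 1733, 1511 and 1892 in DM at 25 mM and 873, 1127 and 763 at 5 mM. In GM it read 298, 280.4 and 274 at 25 mM and 736, 756 and 334 at 5 mM, where both high values belong to the low-18S cultures. Its changes of -0.89 in DM (adjusted p = 0.0992) and 0.96 in GM (adjusted p = 0.392) did not pass alone, and the interaction of -1.85 did (SE 0.34, adjusted p = 0.0274). The change in GM was 0.56 with the 18S class as a block and 0.22 in the 8 high-18S cultures, and a second Herpud1 probe set read 0.01 in GM with an interaction of -0.76 (adjusted p = 0.106).

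Most other genes of the response had no called interaction, and the median interaction of the list was -0.06, against 0.03 over all genes. Creld2, an ER protein induced with Manf, changed by -1.64 in DM (adjusted p = 0.000838) and -0.23 in GM, an interaction of -1.41 that missed the threshold (adjusted p = 0.0538). Hsp90b1, the ER member of the Hsp90 chaperones, had an interaction of 0.07 (SE 0.32), Ddit3, the stress factor CHOP, one of 0.24 (SE 0.33), and Xbp1, the factor spliced by the sensor IRE1, one of -0.55 (SE 0.17, adjusted p = 0.219). Dnajb11, a partner of Hspa5, rose in DM by 0.96 (adjusted p = 0.00857) and had an interaction of 0.95 (adjusted p = 0.137). The called genes thus lay on one side of 0, while 15 of the 28 genes tested had an interaction below 0. Over all genes 3827 of 8117 did.

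Pdia3 and Nucb1, proteins of the same compartment, rose at 5 mM in DM. Of 16 tested protein disulfide isomerases, related oxidoreductases and nucleobindins, 3 had a called interaction, all above 0: Pdia3, Nucb1 and Nucb2. Over all genes 0.185 percent were called above 0. The median interaction of the list was 0.46, with 3 of 16 below 0, against 3827 of all 8117 genes. On MB 4 genes of the list were tested and none was called; all 4 lay below 0, with a median of -0.45 against -0.03 over all MB genes, and Pdia3 read -0.23 there (SE 0.57), so the designs differ in sign. Pdia3, the isomerase that works on glycoproteins, on chromosome 2 at chr2:121413902-121438687, read 1311, 1454 and 1118 in DM at 25 mM and 2630.5, 2351 and 2969 at 5 mM, against 1270.4 to 1485 in the 6 GM cultures. Only DM at 5 mM stood apart; the other groups overlapped. It rose by 1.02 in DM (SE 0.13, adjusted p = 0.000973) and changed by -0.10 in GM (interval -0.39 to 0.18), an interaction of 1.13 (SE 0.19, adjusted p = 0.016). Nucb1, a calcium-binding protein of the secretory pathway, on chromosome 7 at chr7:45492674-45510408, read 246, 285 and 222 in DM at 25 mM and 600.4, 523 and 578 at 5 mM, with GM between 341 and 488. DM therefore held the lowest and the highest cultures, an interaction of 1.20 (SE 0.20, adjusted p = 0.0168).

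Nucb2, which is related to Nucb1, was much dimmer and was of the opposite class. It read 29.1, 35.7 and 31.1 in DM at 25 mM and 62.4, 63.9 and 97.3 at 5 mM. Its GM cultures read 49.5, 79.6 and 53.3 at 25 mM and 34.1, 25.2 and 33.9 at 5 mM. Neither pair overlapped, and the interaction was 1.49 (SE 0.31, adjusted p = 0.0475). Nucb2 was called in 4 of 24 alternatives and in none of the 12 fits that left out a culture, and had 1.41 with the 18S block (adjusted p = 0.0615) and 1.48 in the high-18S cultures (adjusted p = 0.428). Pdia4 had an interaction of 1.73 (SE 0.42) with an adjusted p of 0.11, and Pdia6, which rose in DM by 0.83 (adjusted p = 0.00573), one of 0.71 (adjusted p = 0.165). Also called were 2 genes of N-linked sugar chains that the list counts do not hold: Rpn1, a subunit of the transferase that attaches the chains, at 0.86 and 1.15 on 2 of its 5 MA probe sets, all of which lay above 0, and Prkcsh, a subunit of the glucosidase that trims them, at 0.83 (adjusted p = 0.0329). Of 35 tested genes of ER translocation and N-glycosylation none was called by its brightest probe set, and the median interaction was 0.05. In DM 3 rose (Rpn1, Rpn2 and Ddost), against 0.678 percent of all genes.

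The promoters of Hspa5, Pdia3 and Nucb1 are shown because these ER genes moved in opposite directions. Each sequence is the 250 bases before the start site from RefSeq (GRCm38.p6), written 5′ to 3′ on the strand of the gene, at chr2:34771840-34772089 on the plus strand for Hspa5, chr2:121413652-121413901 on the plus strand for Pdia3 and chr7:45510409-45510658 on the minus strand for Nucb1. Capitals mark the ER stress element, the letters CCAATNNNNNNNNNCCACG, which was searched on both strands and whose ends overlap the shorter motifs CCAAT and CCACG.
Hspa5: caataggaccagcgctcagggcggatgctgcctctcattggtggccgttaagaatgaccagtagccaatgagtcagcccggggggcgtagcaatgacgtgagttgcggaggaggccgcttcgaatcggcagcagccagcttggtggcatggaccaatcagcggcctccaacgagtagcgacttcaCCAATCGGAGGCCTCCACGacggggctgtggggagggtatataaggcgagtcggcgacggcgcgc
Pdia3: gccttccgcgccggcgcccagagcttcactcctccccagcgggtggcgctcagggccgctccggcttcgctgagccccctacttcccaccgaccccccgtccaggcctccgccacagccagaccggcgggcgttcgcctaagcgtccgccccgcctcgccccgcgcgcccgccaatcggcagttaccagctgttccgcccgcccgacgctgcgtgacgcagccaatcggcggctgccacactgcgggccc
Nucb1: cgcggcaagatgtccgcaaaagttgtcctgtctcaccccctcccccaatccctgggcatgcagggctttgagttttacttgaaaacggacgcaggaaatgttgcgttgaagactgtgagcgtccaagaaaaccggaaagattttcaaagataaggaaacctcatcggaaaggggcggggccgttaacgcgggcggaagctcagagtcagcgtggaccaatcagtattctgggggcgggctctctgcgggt
The element is in the Hspa5 promoter, starting 65 bases before the start site, and these letters are in neither of the other windows. Over windows of 300 bases that also hold the 50 bases after the start site, 39 of 32851 promoters had it (0.119 percent), among them 8 of the 25 promoters found for the unfolded protein response list (Hspa5, Hsp90b1, Calr, Canx, Dnajc3, Syvn1, Derl3 and Creld2) and 2 of the 17 found for the isomerase list (Pdia6 and Ero1b). Of these 10 carriers Hspa5 and Creld2 fell in DM and Pdia6 rose. The other 7 did not pass there, with changes of 0.34 for Hsp90b1, 0.39 for Calr, 0.31 for Canx, 0.31 for Dnajc3, 0.04 for Syvn1, 0.57 for Derl3 and -0.48 for Ero1b. The window of Herpud1 held no match.

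Phgdh and Aldh1l2 rose at 5 mM in DM. Phgdh, the first enzyme of serine synthesis, read 979, 897 and 748 in DM at 25 mM and 1863, 1317 and 1893 at 5 mM. In GM it read 2017, 1612 and 1723 at 25 mM and 1229.8, 1265 and 1557 at 5 mM. The DM groups did not overlap, nor did those of GM, and the changes had opposite signs: 0.92 in DM (adjusted p = 0.00903) and -0.40 in GM (adjusted p = 0.448), an interaction of 1.32 (SE 0.24, adjusted p = 0.0226). The change in GM was -0.15 with the 18S block and -0.19 in the high-18S cultures. Of the 4 tested MA probe sets of Phgdh, 2 were called, and the others read 0.85 and 0.86. Aldh1l2, a mitochondrial folate enzyme measured on MB, read 525, 458 and 583 in DM at 25 mM and 2198, 3254 and 2172 at 5 mM. Its GM cultures read 955, 763 and 876 at 25 mM and 984, 1108 and 608 at 5 mM and overlapped. The interaction was 2.20 (SE 0.32, adjusted p = 0.00983), the only one above 0 on MB.

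Of 32 tested ATF4 targets, amino acid transporters and tRNA ligases, Phgdh was the only one called by its brightest probe set. In DM 6 fell and 2 rose, and the median interaction was -0.14. Over all genes 0.678 percent had a called interaction, and in DM 1.38 percent fell and 0.678 percent rose. Iars, the isoleucine tRNA ligase, was called through a second probe set that read 483, 517 and 535 in DM at 25 mM and 246, 288 and 217 at 5 mM, at -1.08 (SE 0.20, adjusted p = 0.0277). Fgf21, a hormone released by stressed muscle, read 1206, 1017 and 889 in DM at 25 mM and 172, 280.0 and 304 at 5 mM, and 5.59 to 30.8 over the GM cultures. It fell in DM, with a change of -1.99 (adjusted p = 0.000293), and its interaction of -1.48 missed the threshold (adjusted p = 0.0572). Atf4 itself had an interaction of 0.07 (SE 0.26, adjusted p = 0.923).

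**Figure D2:**
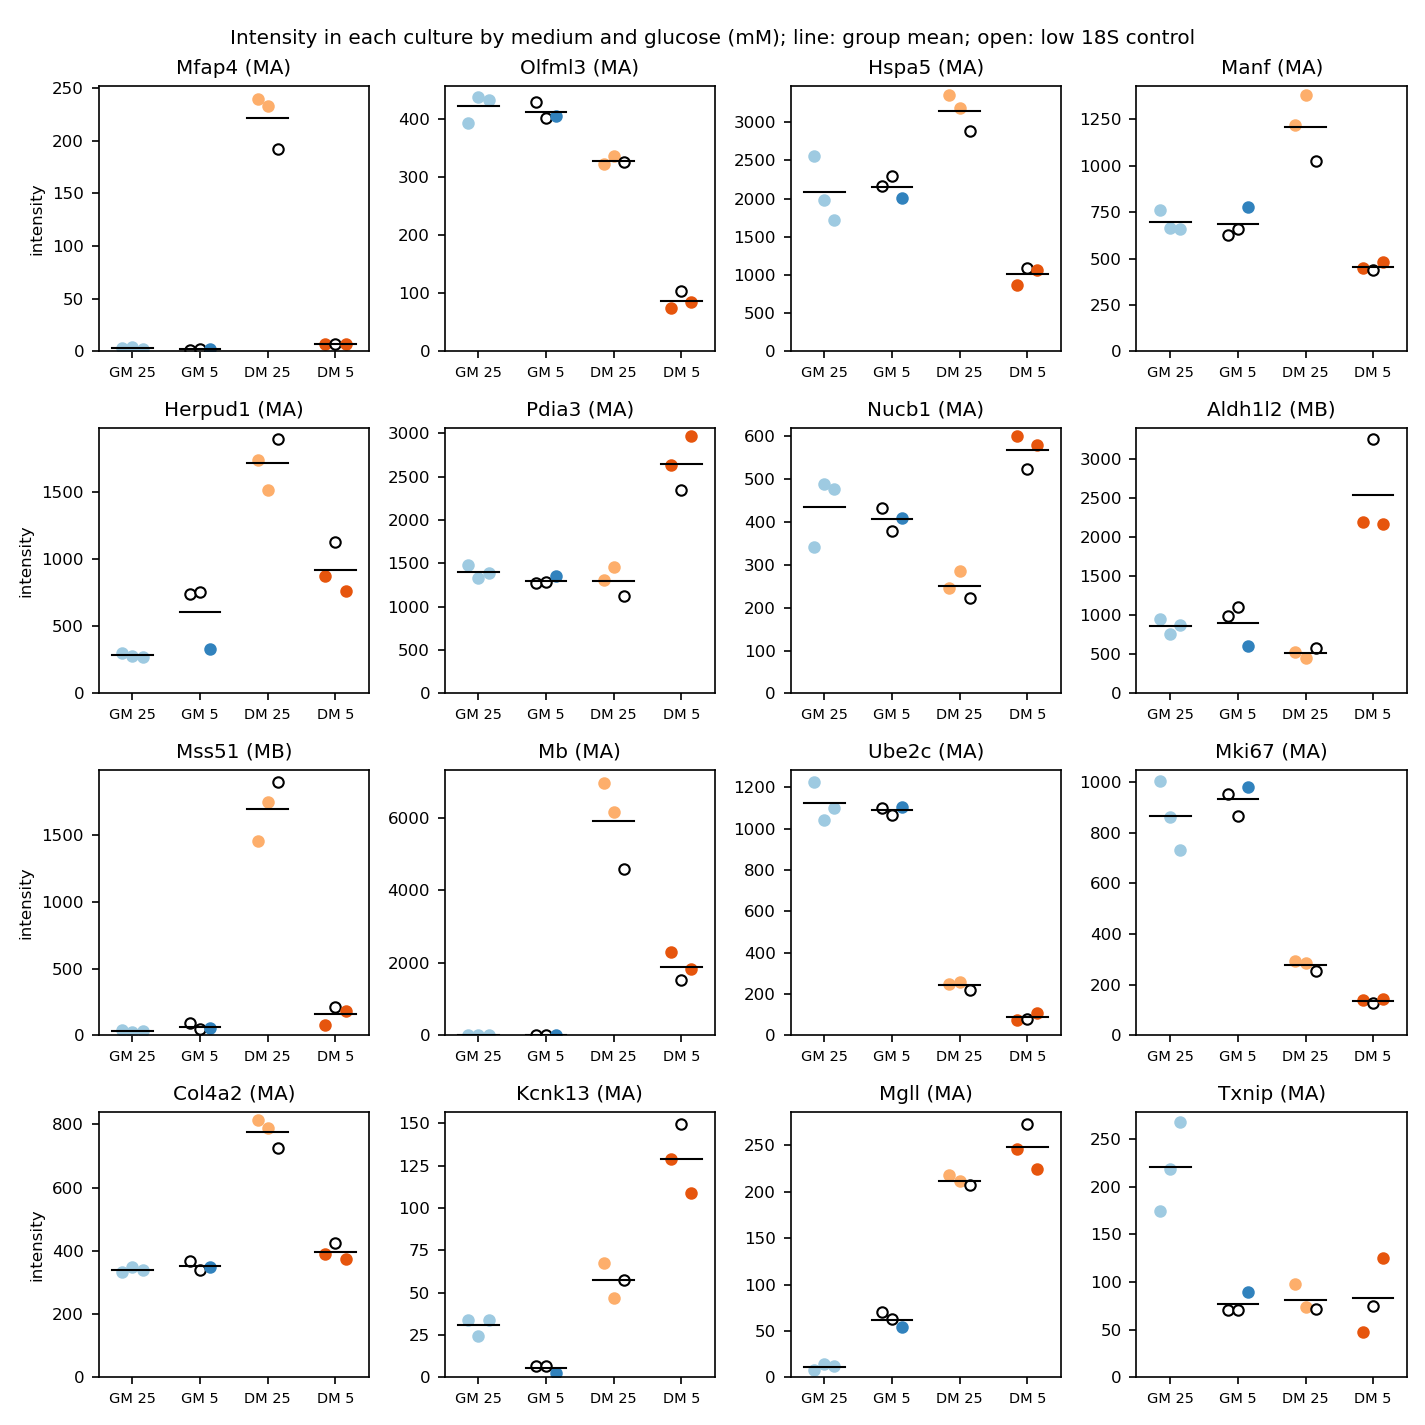
Intensity of 16 genes in each culture, by medium and glucose in mM, with a linear axis from 0 for each gene; the line is the mean of 3 cultures, open circles are the low-18S cultures, and MA or MB names the array design. Hspa5, Manf and Olfml3 were lower, and Pdia3 and Aldh1l2 higher, in all 3 DM cultures at 5 mM than in any other culture, while Mgll and Txnip moved between the GM groups.

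The matrix and secreted proteins Mfap4 and Olfml3 fell at 5 mM in DM. Mfap4, a protein of elastic microfibrils, read 239.8, 233 and 192 in DM at 25 mM and 6.76, 6.85 and 6.61 at 5 mM. In GM all 6 cultures lay between 1.52 and 4.55, so the gene stood out in DM at 25 mM alone. Its interaction of -3.09 (SE 0.29, adjusted p = 0.0006) was the largest on MA, and since a pseudocount of 20 was added to every intensity it understates the ratio of such low values. GM lay below that pseudocount, so a change there could hardly be seen. The interaction is in effect the change in DM, -3.17, and Mfap4 passed the intensity filter through DM at 25 mM alone. Olfml3, a secreted olfactomedin protein, had the reverse layout: 323, 335 and 325 in DM at 25 mM and 394 to 438 in GM, but 74.7, 103 and 84.6 in DM at 5 mM. The low group was DM at 5 mM, with an interaction of -1.67 (SE 0.17, adjusted p = 0.000828) and a GM change of -0.03 (interval -0.29 to 0.23).

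Collagens behaved unevenly. Of 36 tested genes of collagen and matrix, 4 had a called interaction below 0 and none above: Col4a1 and Col4a2, the chains of basement membrane collagen, Col1a1, a chain of fibrillar collagen, and Tnc, the matrix glycoprotein tenascin C. The median interaction was -0.17, and in DM 8 fell and 2 rose. Over all genes 0.493 percent were called below 0, and in DM 1.38 percent fell and 0.678 percent rose. Col4a2 read 815, 789 and 727 in DM at 25 mM and 389, 426 and 375 at 5 mM, against 333 to 369 in GM, an interaction of -0.98 (SE 0.15, adjusted p = 0.00836). DM at 5 mM thus lay just above the range of GM. Col4a1, its neighbour in the genome, had -1.05 (adjusted p = 0.0225) and Tnc -1.02 (adjusted p = 0.0155).

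Col1a1 went in opposite directions. It read 145, 199 and 164 in DM at 25 mM and 78.6, 76.0 and 95.9 at 5 mM, but 20.4, 32.2 and 41.4 in GM at 25 mM and 82.5, 81.2 and 77.2 at 5 mM. At 5 mM the media had similar levels, and at 25 mM they did not overlap. The interaction was -1.86 (SE 0.27, adjusted p = 0.00772). A second Col1a1 probe set read 0.24 (SE 0.43), so this rests on a single probe set. Col1a2, the partner chain, had an interaction of 0.69 (SE 0.49, adjusted p = 0.565).

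Other secreted proteins with called interactions below 0 were Ccn2, a matricellular growth factor partner, at -1.83 (SE 0.29, adjusted p = 0.0119), and Il17b, a cytokine, at -1.87 (SE 0.28, adjusted p = 0.00836). Ccn2 read 110.1, 153 and 161 in DM at 25 mM and 27.2, 49.8 and 28.5 at 5 mM, and Il17b 518, 672 and 437 at 25 mM and 116, 129 and 94.2 at 5 mM. In GM Il17b lay between 5.75 and 12.4, so its interaction is in effect the change in DM. On MB, Cilp, a matrix protein first found in cartilage, read 763, 867 and 1106 in DM at 25 mM and 205, 252 and 144 at 5 mM with GM between 125 and 199, an interaction of -2.39 (SE 0.38, adjusted p = 0.0256). Ltbp3, Fstl3 and Pmepa1, each linked to TGF-beta or activin signalling, were called at -1.28, -1.36 and -1.25. A second MA probe set of Ltbp3 read -0.72 and the other MA probe sets of Pmepa1 -0.49 and -0.96, none of them called. These 3 were picked for mention after their values were seen.

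Muscle genes with a called interaction were lower at 5 mM in DM. Mb, the oxygen-binding protein myoglobin, read 6960.0, 6163 and 4593 in DM at 25 mM and 2291, 1515 and 1838 at 5 mM. All 6 GM cultures lay between 1.85 and 25.1, so a fall could be seen only in DM. Its interaction was -1.75 (SE 0.35, adjusted p = 0.0444). The call held in 11 of 25 alternatives and in 2 of the 12 fits that left out a culture. In the 8 high-18S cultures Mb changed by -1.66 in DM and 0.81 in GM, against -1.64 and 0.11 in all 12. There GM at 5 mM is the culture at 25.1 alone. Mss51, a mitochondrial protein of fast muscle measured on MB, read 1452, 1749 and 1894 in DM at 25 mM and 74.8, 216 and 185 at 5 mM. In GM it read 39.9, 25.2 and 36.6 at 25 mM and 90.7, 48.2 and 58.7 at 5 mM. The DM groups lay far apart and GM was low, with an interaction of -4.01 (SE 0.52, adjusted p = 0.00428), the largest on either design. The change in DM was -3.36. The rest of the interaction came from a change of 0.65 in GM, which did not pass (adjusted p = 0.71).

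For a gene that is nearly silent in GM, the interaction is in effect the change in DM. Of 37 tested genes of the contractile apparatus 1, Actn2, had a called interaction by its brightest probe set, against 0.678 percent of all genes. In DM 7 fell, against 1.38 percent of all genes, and the median interaction was -0.33. Actn2, the alpha-actinin of the Z-disc, read 1408, 1088 and 932 in DM at 25 mM and 462, 263 and 348 at 5 mM, and 3.28 to 9.39 over the GM cultures; the interaction was -1.37 (SE 0.28, adjusted p = 0.048). Other probe sets were called for Myh1, a fast myosin heavy chain, at -1.75 (adjusted p = 0.0161) and for Ldb3, a Z-disc protein, at -1.30 (adjusted p = 0.024), whose other 2 probe sets read -0.33 and 0.58. Of 19 genes of glycolysis and glucose transport the 2 called were muscle isoforms: Pfkm, the phosphofructokinase of muscle, at -1.07 (adjusted p = 0.0329), and Pgam2, the phosphoglycerate mutase of muscle, at -1.37 (adjusted p = 0.0446). Pfkm was well above 0 in GM, at 350.2 to 477, and read 1944, 1911 and 1475 in DM at 25 mM and 1018, 793 and 878 at 5 mM. Myog had an interaction of -0.23 (SE 0.37), Myod1 of -0.02 (SE 0.19), Acta1, the skeletal actin, of -0.35 (SE 0.63) and Ckm, the muscle creatine kinase, of -0.20 (SE 0.32), with adjusted p-values from 0.809 to 0.982. None of 22 myogenic regulators had a called interaction, and 1 fell in DM. Given the shares of 0.678 and 1.38 percent over all genes, such counts in 22 genes do not set the list apart.

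Mitotic genes had interactions below 0. Of 39 tested genes of G2 and mitosis, 7 had a called interaction, all below 0 (Ccnb2, Bub1, Bub1b, Cenpa, Mki67, Ube2c and Pttg1). Of the 39, 37 were below 0, the median was -0.71, and 16 fell in DM. Over all 8117 genes 0.493 percent were called below 0, 3827 lay below 0 and 1.38 percent fell in DM. The medians over all genes were 0.03 for the interaction and 0.01 for DM. Ube2c, the ubiquitin enzyme of the anaphase-promoting complex, read 251, 258 and 219.8 in DM at 25 mM and 75.0, 81.0 and 109 at 5 mM. In GM it read 1226, 1042 and 1101 at 25 mM and 1101, 1064 and 1104 at 5 mM, which overlapped. Its interaction was -1.25 (SE 0.19, adjusted p = 0.00836) and its GM change -0.04 (interval -0.32 to 0.24). Mki67, the proliferation antigen, read 294, 287 and 254 in DM at 25 mM and 140.3, 127 and 145 at 5 mM and lay between 730.0 and 1004 in GM, with -1.04 (SE 0.18, adjusted p = 0.0211). Cenpa, the histone of centromeres, had -1.43 (adjusted p = 0.0151), though 2 MB probe sets read 0.77 and 0.64 without a call, and Bub1b, a kinase of the spindle checkpoint, -1.11 (adjusted p = 0.0288). Bub1 was of the opposite class, with -0.71 in DM (adjusted p = 0.073) and 0.64 in GM (adjusted p = 0.404), the latter 0.30 in the high-18S cultures. The call of Ccnb2 held in 6 of 25 alternatives and in none of the 12 fits that left out a culture. On MB, Depdc1b, which is also highest in mitosis, read 215, 281 and 278 in DM at 25 mM and from 31.1 to 65.2 at 5 mM, an interaction of -2.38 (adjusted p = 0.0495). It was called in 6 of 25 alternatives and in 2 of those 12 fits. Of 14 list genes tested on MB none was called. Of these, 9 lay below 0 (3547 of 6839 over all MB genes), with a median of -0.36 against -0.03.

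Genes of G1 and S phase leaned the other way. Of 31 tested, 1 was called, above 0 (against 0.185 percent of all genes), and 4 lay below 0 (against 3827 of all 8117). The median interaction was 0.29 and the median change in DM 0.41. Cdt1, which loads the replicative helicase, read 163, 173 and 159.8 in DM at 25 mM and 331, 312 and 329 at 5 mM, against 328 to 431 in GM, with an interaction of 0.93 (SE 0.17, adjusted p = 0.0251). Within DM the groups did not overlap. A second MA probe set of Cdt1 rose in DM too (0.68, adjusted p = 0.0427), but its interaction of 0.48 was not called (adjusted p = 0.404). The call on the first held in 12 of 25 alternatives and in 4 of the 12 fits that left out a culture. Ccnd1, the cyclin of G1, rose in DM by 1.03 (adjusted p = 0.0121), and its interaction of 1.29 missed the threshold (adjusted p = 0.0553). Cdkn1a, the inhibitor p21 that marks cell cycle exit, had 0.11 (SE 0.33).

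**Figure D3:**
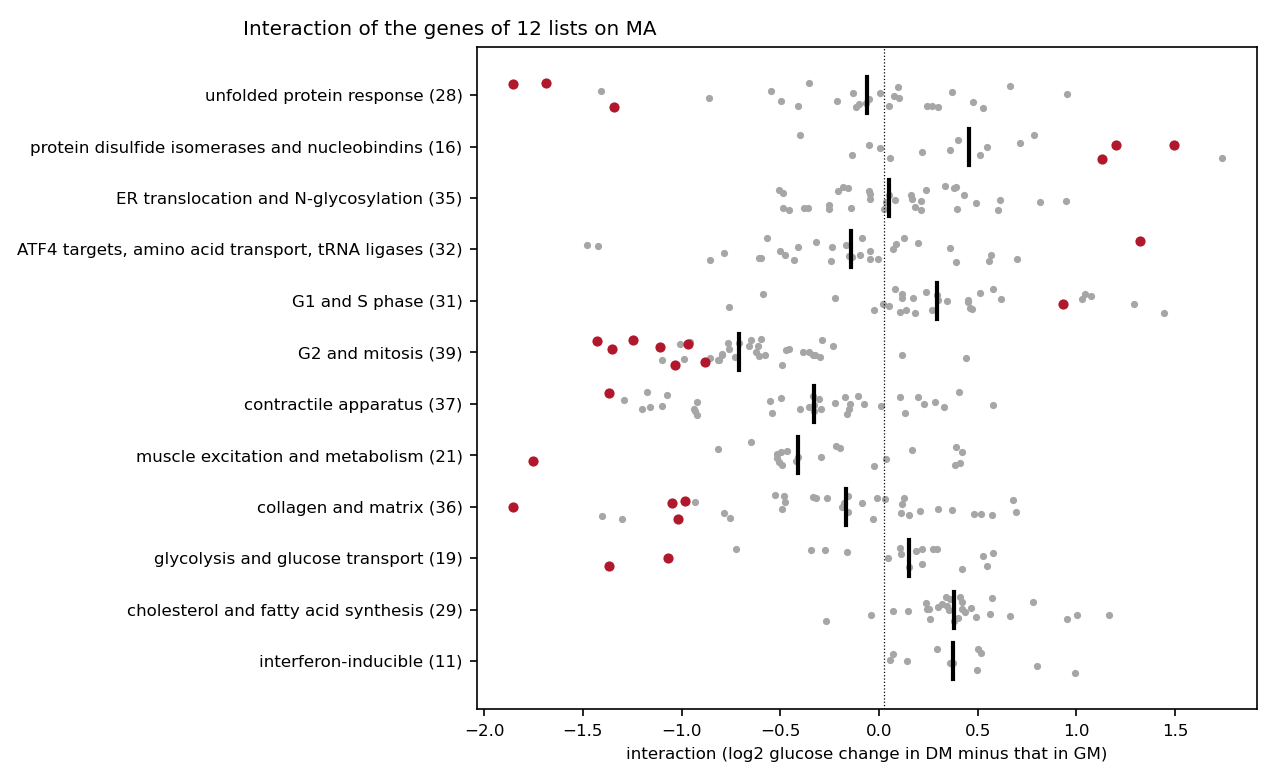
Interaction of each tested gene of 12 lists on MA in log2 units, by its brightest probe set; red points have an adjusted p under 0.05, bars are list medians, the dotted line is the median of all genes and numbers in brackets are genes tested. G2 and mitosis has a median of -0.71 with 7 called genes, and G1 and S phase one of 0.29 with 1.

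Further called genes belong to no list. Ahr, the receptor for dioxins and related ligands, read 224, 268 and 333 in DM at 25 mM and 79.0, 85.2 and 79.9 at 5 mM against 173 to 219 in GM, an interaction of -1.58 (SE 0.21, adjusted p = 0.00671). A second Ahr probe set read 0.10 (adjusted p = 0.929), so the call rests on the first. Ndrg4 was called on both of its named probe sets, at -1.58 and -1.26; on the first it read 2649.6, 2689 and 2214 in DM at 25 mM and 1049, 924 and 768 at 5 mM with GM between 289.6 and 379. Above 0 were Anxa3, a membrane-binding annexin, at 1.15 (adjusted p = 0.00772), Ifitm3, an antiviral membrane protein, at 1.15 (adjusted p = 0.0137), Ephx1, a detoxifying epoxide hydrolase, at 1.05 (adjusted p = 0.00836), and Cyb5r1, a cytochrome b5 reductase, at 1.02 (adjusted p = 0.0141). The layouts differed: Ephx1 was lower in every DM culture (139, 163 and 129 at 25 mM, 282, 291 and 305 at 5 mM) than in any GM culture (447 to 502). Cyb5r1 was higher in every DM culture (613, 544 and 627 and 1279.6, 1203 and 1284) than in GM (184 to 231). Among 29 genes of cholesterol and fatty acid synthesis none was called, against 0.678 percent of all genes. Of the 29, 2 lay below 0, against 3827 of all 8117, and the median interaction was 0.38.

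Changes of opposite direction made up the second class. For all 21 probe sets the DM groups did not overlap, and for 19 those of GM did not; over all tested probe sets 14.5 percent did not overlap in DM and 17.7 percent in GM. In the class DM alone the DM groups did not overlap for any of the 50, and those of GM did not for 8. The classes were chosen on these same changes, so the counts describe them and support nothing. Kcnk13, a potassium channel, read 67.5, 46.7 and 57.5 in DM at 25 mM and 129, 149 and 109 at 5 mM, and in GM 33.6, 24.6 and 33.9 at 25 mM and 6.86, 6.81 and 2.72 at 5 mM. It rose in DM and was lower at 5 mM in GM, 0.95 and -0.99, an interaction of 1.94 (SE 0.29, adjusted p = 0.00836). Every GM culture of Kcnk13 lay below the mean intensity above which probe sets were tested, so the size of its GM change is poorly fixed. Over the alternatives that change ran from -2.36 to -0.45 and the interaction from 1.12 to 3.52. Sh3bp4, an adaptor of endocytosis, ran the opposite way, with 289, 286 and 266 in DM at 25 mM and 134, 135 and 127 in DM at 5 mM. Its GM cultures read 71.3, 71.0 and 62.0 at 25 mM and 118, 107 and 102 at 5 mM. Its changes were -0.98 in DM and 0.55 in GM, the interaction -1.53 (SE 0.19, adjusted p = 0.00382), and neither medium had overlapping glucose groups. An MB probe set of Sh3bp4 read 0.02 (adjusted p = 0.996).

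Also opposite were Slc41a3, a magnesium transporter family member, at 1.78, Lgals3bp, a secreted galectin partner, at 1.59, and Basp1, a membrane protein of growing cell edges, at 1.17, all higher at 5 mM in DM and lower at 5 mM in GM. Slc41a3 did not pass in DM (adjusted p = 0.0889), and its GM change went from -0.81 to -0.47 in the high-18S cultures, while that of Basp1 went from -0.39 to -0.11. Bhlhe40, a repressor of the circadian clock, at -1.53, Dtd1, an enzyme that clears D-amino acids from tRNA, at -1.67, and Plaat3, a phospholipase, at -1.24, were the reverse; the GM change of Bhlhe40 went from 0.66 to 0.36 in the high-18S cultures. A protein lysine methyltransferase, Eef1akmt1, was called on 1 probe set at 2.05 (adjusted p = 0.00836), while its other 3 read -0.05, -0.16 and -0.19. No GM change of this class passed alone.

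Mgll alone was called with a change in GM. It encodes monoglyceride lipase, the last step in the breakdown of stored fat. In GM it read 8.45, 14.2 and 11.8 at 25 mM and 70.2, 62.9 and 53.8 at 5 mM, and in DM 218, 211 and 207 at 25 mM and 246, 272 and 224 at 5 mM. The GM groups lay far apart below every DM culture. The change was 1.39 in GM (SE 0.16, adjusted p = 0.0059) and 0.20 in DM (adjusted p = 0.788). The interaction was -1.18 (SE 0.22, adjusted p = 0.0299). All GM cultures at 25 mM lay below the pseudocount and below the mean intensity above which probe sets were tested. The size of the GM change of Mgll is therefore poorly fixed. Over the alternatives that change ran from 0.74 to 2.36 and the interaction from -2.14 to -0.57. The interaction was called in 10 of 24 alternatives and in 3 of the 12 fits that left out a culture. The other 2 tested MA probe sets of Mgll changed by -0.38 (SE 0.23) and 0.29 (SE 0.23) in GM and did not pass, so the call rests on a single probe set. Txnip, a sensor gene that high glucose induces in many cells, also differed between the GM groups but was not called. It read 175, 219 and 267 in GM at 25 mM and 70.3, 70.8 and 89.8 at 5 mM, and 98.1, 73.6 and 72.1 and 48.0, 75.2 and 125 in DM. In GM the groups did not overlap and in DM they did, with changes of -1.30 in GM (interval -1.82 to -0.77, adjusted p = 0.269) and -0.04 in DM, and an interaction of 1.26 (SE 0.35, adjusted p = 0.165).

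A small set of genes had changes of the same sign in both media, all lower at 5 mM. With a called average change, an unadjusted p under 0.05 in each medium, the same sign and no called interaction, there were 12 on MA (0.0884 percent) and none on MB; on MA the average change was called for 53 probe sets (0.39 percent), 15 higher (0.11 percent) and 38 lower (0.28 percent). They were Hspb7, Fgf21, Chac1, Csrp3, Edc4, Fst, Nrap, Birc5, Slc4a3, Nfil3, Slc20a1 and Srgap2. For all 12 the DM groups did not overlap (14.5 percent of those tested), and for 11 those of GM did not (17.7 percent). The choice of the set on these changes favours this. None of the 12 passed in GM alone (adjusted p from 0.297 to 0.459), so a response in GM rests on the unadjusted p. In GM Hspb7, Fgf21 and Fst had group means of at most 34.9, 19.5 and 35.8, near or below the intensity of 35.5 above which probe sets were tested. Csrp3, Slc4a3 and Nfil3 were below it in GM at 5 mM, with means of 18.8, 34.6 and 34.6. Chac1, an ATF4 target that degrades glutathione, read 138, 174 and 139.8 in DM at 25 mM and 71.1, 62.9 and 57.9 at 5 mM. In GM it read 176, 167 and 108 at 25 mM and 86.6, 61.3 and 59.3 at 5 mM, lower at 5 mM without overlap in either medium. Its changes were -1.02 in DM and -0.92 in GM, the average -0.97 (SE 0.14, adjusted p = 0.00545) and the interaction -0.10 (95 percent interval -0.69 to 0.50).

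Others of the set were less alike in the media. Fst, the activin antagonist follistatin, read 1172, 1075 and 1270.2 in DM at 25 mM and 319.5, 324 and 294 at 5 mM. Its GM cultures read 31.7, 68.1 and 7.65 at 25 mM and 11.5, 13.0 and 11.8 at 5 mM and overlapped. Its interaction of -1.20 (SE 0.41, adjusted p = 0.278) was not called, and an MB probe set changed by -1.21 in DM and 0.97 in GM. Csrp3 and Nrap, scaffold proteins of muscle, had average changes of -0.96 and -0.69, Birc5, the mitotic protein survivin, of -0.47, and Slc4a3, an anion exchanger, of -0.77. A missed interaction does not show equal responses: the interval for Csrp3 ran from -1.17 to 0.03.

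The direction of every called interaction held under every alternative run, but the number of calls differed between fits. With the 18S class as a block 125 probe sets were called on MA and 70 of the 72 stayed called (49 of 50 in DM alone, 20 of 21 in opposite directions). In the 8 high-18S cultures 16 were called and 13 of the 72 stayed, 12 of them in DM alone, 1 in opposite directions. Among those 13 were Hspa5, Manf, Olfml3, Ahr, Mb, Cenpa, Phgdh and Ifitm3. Others lost the call with an interaction of about the same size: Mfap4 had -3.19 (adjusted p = 0.0692), Pdia3 1.05 (0.0544), Nucb1 1.17 (0.174), Col1a1 -1.77 (0.18) and Mgll -1.11 (0.4). That fit also has fewer samples, so the lost calls do not show that they depend on the 18S class. On MB, Aldh1l2 stayed (2.60, adjusted p = 0.00776) and Mss51 did not (-4.09, adjusted p = 0.214).

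**Figure D4:**
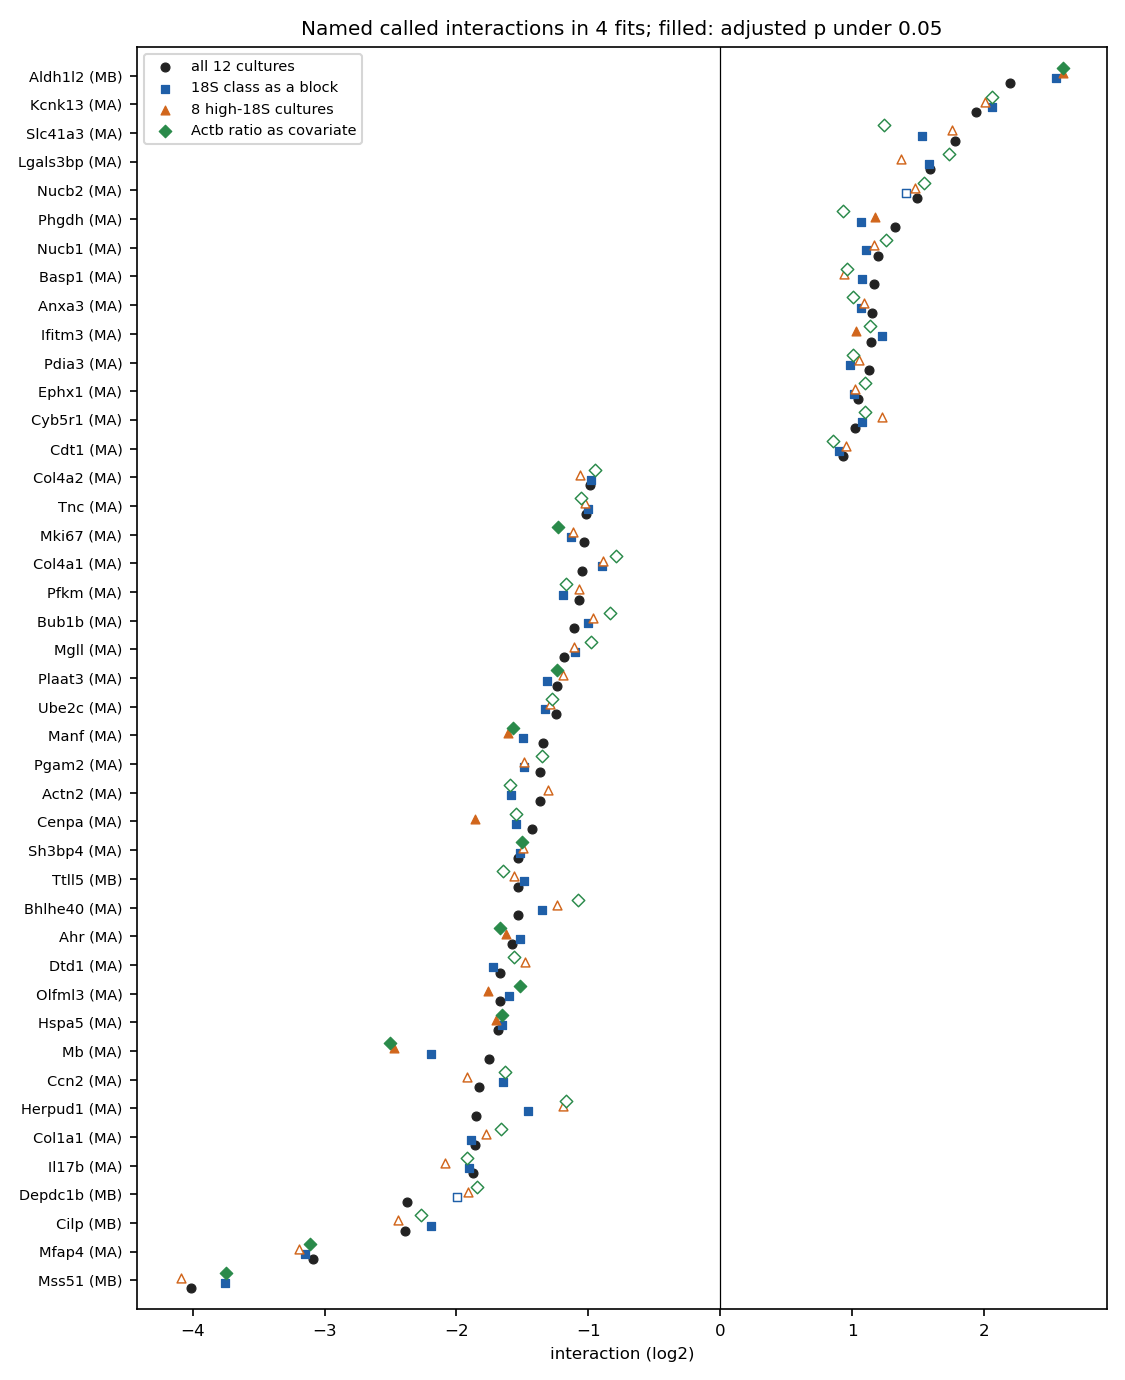
Interaction (log2) of each named called gene in 4 fits: all 12 cultures (circles), the 18S class as a block (squares), the 8 high-18S cultures (triangles) and the Actb 3′ to 5′ ratio as a covariate (diamonds); filled symbols have an adjusted p under 0.05 and open ones do not. Every symbol of a gene lies on the same side of 0, while few triangles and diamonds are filled.

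RNA quality as read from the controls moved with the groups too. The log2 ratio of the 3′ to the 5′ control probe set of Actb on MA was 0.34 to 0.55 in GM at 25 mM, -0.05, -0.04 and 0.38 in GM at 5 mM, and 0.10 to 0.37 over the 6 DM cultures. With this ratio as a covariate, an alternative chosen after seeing the data, 16 probe sets were called, 13 of the 72 among them, including Hspa5 (-1.65, adjusted p = 0.0367), Manf (-1.57, adjusted p = 0.0104), Mfap4 (-3.11, adjusted p = 0.00696) and Mb (-2.50, adjusted p = 0.0052). The part that RNA quality or the 18S class has in the calls that were lost was not tested beyond these fits.

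The numbers of called list members differed between these fits. G2 and mitosis had 8 called below 0 with the 18S block and 1 in the high-18S cultures, with medians of -0.63 and -0.60. The isomerase list had 3 called above 0 with the block, Nucb2 not among them, and none in the high-18S cultures, with medians of 0.28 and 0.32, and the unfolded protein response had 4 and 2 below 0. The contractile apparatus had 3 with the block and a median of -0.66, and collagen and matrix 5 with the block and none in the high-18S cultures.

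**Figure D5:**
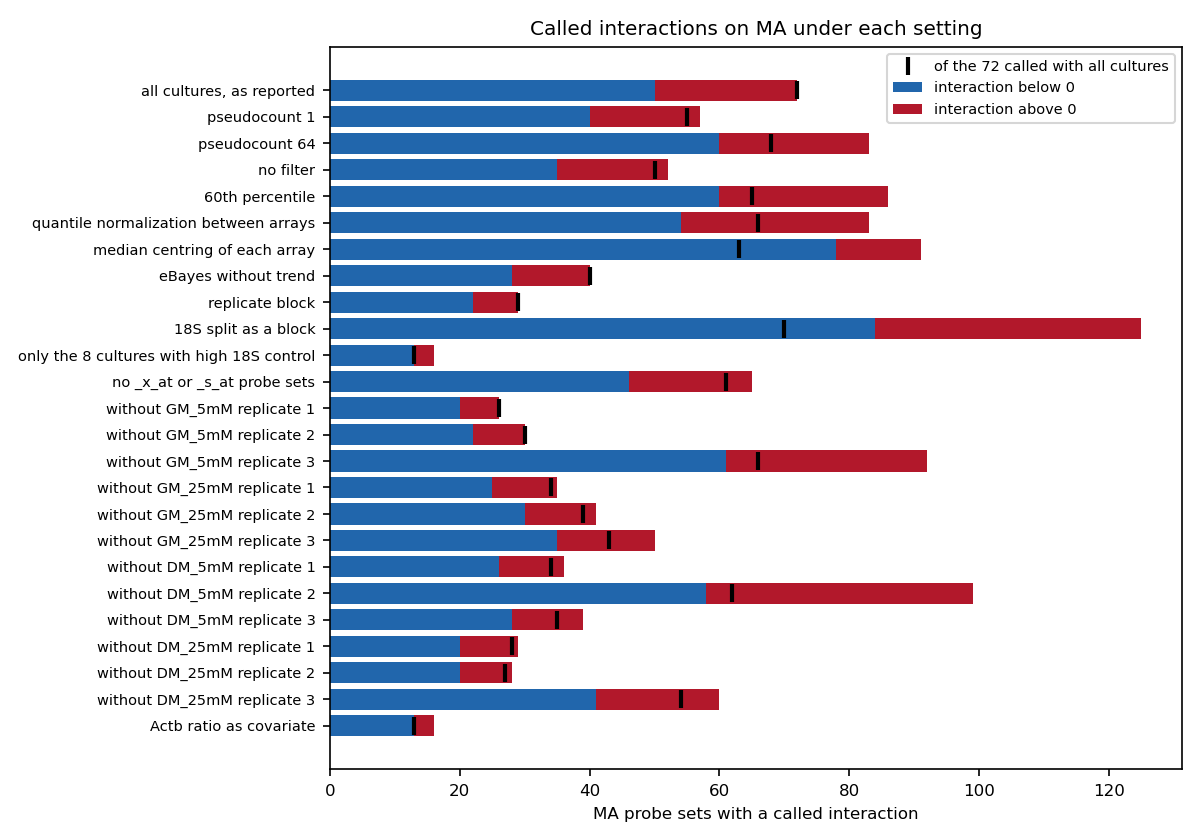
Number of MA probe sets with a called interaction under each setting, split into interactions below 0 (blue) and above 0 (red); the black mark counts those among the 72 called with all cultures. The bars run from 16 to 125; array weights, with 322, are not drawn.

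Single libraries also set how many were called. Without GM_5mM-1 the MA count was 26, without GM_5mM-2 30, without DM_25mM-2 28, without DM_25mM-1 29, without GM_25mM-1 35, without DM_5mM-1 36, without DM_5mM-3 39 and without GM_25mM-2 41. It was 50 without GM_25mM-3, 60 without DM_25mM-3, 92 without GM_5mM-3 and 99 without DM_5mM-2. Of the 72, 21 stayed called with each culture left out in turn, and 5 probe sets stayed called under every alternative: those of Olfml3, Hspa5, Manf, Ahr and Ndrg4. Centring each array on its median moved the median interaction of all probe sets by -0.15 on MA and -0.16 on MB and changed the split from 22 above and 50 below 0 to 13 and 78.

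Markers of other cell types were few among the tested probe sets, and none of 3 adipocyte, 2 osteoblast and cartilage, and 3 blood and endothelial markers on MA had a called interaction or a called glucose change in either medium. In GM the median change was -0.73 for the osteoblast and cartilage markers and -0.38 for the blood and endothelial ones, and the GM groups did not overlap for Sox9 (93.6 to 136 at 25 mM, 65.1 to 76.0 at 5 mM), Kdr (change -0.38, SE 0.19), Lpl (72.3 to 89.4, then 56.6 to 67.0) and Csf1r (97.3 to 103, then 62.9 to 85.9). The GM groups of the other tested markers, Cebpa, Retn, Sp7 and Cd14, overlapped. Over all tested MA probe sets 17.7 percent did not overlap in GM and 14.5 percent in DM. The DM groups of Sox9, Csf1r, Cebpa, Retn, Sp7 and Cd14 overlapped. Those of Kdr (33.4 to 42.8 at 25 mM, 47.1 to 52.1 at 5 mM) and Lpl (23.4 to 27.8, then 29.8 to 53.7) did not. Both were higher at 5 mM in DM, opposite to GM. The part of these markers in the interactions was not tested. Adipoq, which defines adipocytes, was at or below 28.0 in all cultures and was not tested. Ptprc, which defines blood cells, reached 27.2 on MA and 49.7 on MB, and Pecam1, an endothelial marker, 35.2 on MA. Cd14, another marker of the blood and endothelial set, lay between 104 and 149 in GM and between 21.8 and 56.7 in DM. Cebpa, an adipocyte factor with a level in GM, lay between 217 and 341 in GM and between 37.4 and 70.0 in DM.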

How the data were processed

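The authors deposited one linear intensity per probe set, which by its values was scaled: after trimming 2 percent at each end, array means lay near 150 on every array. The software and scaling are not given in the sources used here. The 24 arrays hold 12 cultures on 2 designs.

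From these, log2(intensity + 20) was taken without renormalization. The 64 control probe sets of a design did not enter, and testing was limited to probe sets above the 40th percentile of mean intensity (35.5 on MA, 63.7 on MB). Genes came from the platform annotation: 20380 of the MA probe sets name 1 gene, 691 several and 1555 none; 14661, 245 and 7605 on MB. Coordinates are RefSeq's, GRCm38.p6. Each design was fitted with limma 3.58.1 (R 4.3.3, statmod 1.5.0): 4 group means, eBayes with a trend, two-sided tests, Benjamini-Hochberg adjustment within a design, called at an adjusted p under 0.05. SE is the standard error of a log2 change. The precision is limited by the number of arrays. The scripts were tested on simulated data.

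A gene is its brightest tested probe set that names it alone. The rule for named genes took 24 fixed genes, the 12 largest called interactions each way on MA and 5 on MB, up to 4 called members per list and up to 8 genes per class; other names were chosen after their values were seen. The members, the 31 gene lists and the fixed genes were chosen with earlier results of these data known. Alternatives were pseudocounts of 1 and 64, no filter, the 60th percentile, quantile normalization, median centring, no trend, array weights, the replicate number or the 18S class as a block, the 8 high-18S cultures, no _x_at or _s_at probe sets, and each culture left out; the Actb ratio as a covariate was added after the data were seen.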

Additional observations from a re-analysis of the deposited data

Results flagged for a closer look

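The glucose change differed between DM and GM, by the test of the interaction itself, in 72 MA and 5 MB probe sets. The values below are log2 interactions, the change from 25 to 5 mM glucose in DM minus that in GM, each with an adjusted p under 0.05 in limma's fit across all probe sets of the design.

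In the ER and in serine and folate metabolism these were Hspa5 at -1.69, Manf at -1.34 and Herpud1 at -1.85, against Pdia3 at 1.13, Nucb1 at 1.20, Nucb2 at 1.49, Phgdh at 1.32 and, on MB, Aldh1l2 at 2.20. Among matrix and secreted proteins were Mfap4 at -3.09, Il17b at -1.87, Col1a1 at -1.86, Ccn2 at -1.83, Olfml3 at -1.67, Col4a1 at -1.05, Tnc at -1.02, Col4a2 at -0.98, Lgals3bp at 1.59 and, on MB, Cilp at -2.39.

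Genes of muscle and its metabolism were Mb at -1.75, Actn2 at -1.37, Pgam2 at -1.37, Pfkm at -1.07, Mgll at -1.18 and, on MB, Mss51 at -4.01. Cell cycle genes were Cenpa at -1.43, Ube2c at -1.25, Bub1b at -1.11, Mki67 at -1.04 and Cdt1 at 0.93, with Depdc1b at -2.38 on MB.

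The remaining genes below 0 were Dtd1 at -1.67, Ahr at -1.58, Bhlhe40 at -1.53, Sh3bp4 at -1.53, Plaat3 at -1.24 and, on MB, Ttll5, a tubulin-modifying enzyme, at -1.53. Above 0 were Kcnk13 at 1.94, Slc41a3 at 1.78, Basp1 at 1.17, Anxa3 at 1.15, Ifitm3 at 1.15, Ephx1 at 1.05 and Cyb5r1 at 1.02. No explanation was tested.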

How the results depend on the processing

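Every called interaction kept its sign under each alternative; the counts moved. Interactions on MA (72) numbered 40 without a trend in eBayes, 322 with array weights, 125 with the 18S class as a block, 16 in the 8 high-18S cultures and 16 with the Actb ratio as a covariate, and 26 to 99 with 1 culture left out. On MB (5) they numbered 3 with no filter or quantile normalization, 1 with median centring or in the high-18S cultures, 2 without trend or with the Actb ratio, 9 with array weights and 1 to 6 with 1 culture left out. Glucose changes in DM numbered 569 on MA with the 18S block (124 to 238 with 1 culture left out), and on MB 16 with quantile normalization and 44 with the block (5 to 16). In GM there were 0 on MA with a pseudocount of 64, in the high-18S cultures, without _x_at and _s_at probe sets or with the Actb ratio and 855 with array weights (0 to 5 with 1 culture left out), and 5 on MB with array weights (0 to 2). Average changes numbered 80 at the 60th percentile, 301 with array weights, 152 with the 18S block and 11 in the high-18S cultures on MA (33 to 74), and on MB 1 with a pseudocount of 1, no filter or the 18S block and 0 with median centring, without trend, in the high-18S cultures or with the Actb ratio (0 to 6).

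Of the classes on MA, DM alone (50) held 28 without trend, 131 with array weights, 86 with the 18S block, 13 in the high-18S cultures, 12 with the Actb ratio and 23 to 64 with 1 culture left out. GM alone (1) held 2 with a pseudocount of 1, the 60th percentile, quantile normalization or median centring, 63 with array weights, 3 with the 18S block, 0 with no filter, in the high-18S cultures, without _x_at and _s_at probe sets or with the Actb ratio, and 0 to 6 with 1 culture left out. Both media in the same direction (0) held 1 with a pseudocount of 64, the 60th percentile or the 18S block and 2 with array weights. Opposite directions (21) held 13 without trend, 135 with array weights, 40 with the 18S block, 4 in the high-18S cultures, 6 with the Actb ratio and 5 to 39 with 1 culture left out. The shared response (12) held 131 with array weights, 26 with the 18S block, 1 in the high-18S cultures, 7 with the Actb ratio and 5 to 25. List members with a called interaction (26) numbered 17 with no filter, 13 without trend, 72 with array weights, 41 with the 18S block, 6 in the high-18S cultures, 5 with the Actb ratio and 8 to 29 with 1 culture left out. The causes of these moves were not tested.

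Deviations from the group mean correlated by -0.06 on average over 18 same-numbered pairs on MA and by -0.02 on MB. The range was -0.56 to 0.52 on MA and -0.22 to 0.24 on MB, with r over 0.1 in 3 and 2 pairs. On MA the mean was 0.18 within an 18S class and -0.19 between classes. These averages do not settle whether the replicate number pairs cultures. With the replicate block 29 interactions were called on MA and 2 on MB, with 24 in DM alone, 0 in GM alone, 7 in opposite directions and 10 list members.

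For single named or called genes, 7881 values were recomputed over the interaction and its glucose changes: 6783 stayed on the same side of the threshold, 808 lost and 70 gained a call, 220 changed sign without a call in either fit, and 0 changed sign with one. The limits are 3 cultures per group and, on MB, a wider spread between cultures, with correlations of 0.792 to 0.918 against 0.951 to 0.987 on MA.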
